A study of Homo sapiens with 8 samples.

Results

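The genes described here are 42 genes of mitosis, from the kinase that starts it to the proteins that split the cell, taken by symbol from a fixed list. Of these, 35 were found under their own symbol among 27204 genes and loci, and the other 7 (CCNB2, CCNA2, PLK1, BUB1B, CENPA, UBE2C and FOXM1) lie only in loci that the deposited tables merge with a neighbouring gene. RNA was sequenced from H1703, an established human lung squamous cell carcinoma line, in 4 groups of 2 libraries. The groups were attached cells with a luciferase knockdown (control), attached cells with a knockdown of SPIB, floating cells with the luciferase knockdown and floating cells with the SPIB knockdown, and floating cells are called detached here. SPIB is an ETS family transcription factor, and the series title ties it to anoikis resistance, the survival of cells that have lost their matrix. The control cells thus carry a knockdown too, and every group is the same cell line. The labels call the libraries of a group biological repeats, and 12 hours of floating is noted for all 8 samples, attached ones included.

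Mitosis genes are a co-regulated set in dividing cells: their RNAs are low after division, accumulate in G2 and peak as cells enter mitosis. In resting cells the DREAM complex holds many of them off through a short promoter element, the CHR (cell cycle genes homology region). In cycling cells its MuvB core joins MYBL2 and FOXM1 to switch them on, with the factor NF-Y bound at CCAAT boxes nearby. Their summed RNA is widely read as a sign of how many cells divide. In bulk libraries such as these, fewer cells in mitosis and less of the RNA per mitotic cell cannot be told apart.

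Promoter sequences are shown for some of the members whose RNA passed the test on detachment below, with the CHR and CCAAT letters in capitals. ASPM and KIF20A were higher in detached cells, and ANLN and AURKB were lower. Each sequence is the 250 bases before a RefSeq transcription start (GRCh38.p14), written 5′ to 3′ in the direction of the gene. Capitals mark TTTGAA or TTTAAA (CHR) and CCAAT, on either strand, so that TTCAAA and ATTGG are the same motifs read from the other strand. ASPM lies on the minus strand at chr1:197146670-197146919, KIF20A on the plus strand at chr5:138178862-138179111, ANLN on the plus strand at chr7:36389612-36389861 and AURKB on the minus strand at chr17:8210226-8210475.
ASPM: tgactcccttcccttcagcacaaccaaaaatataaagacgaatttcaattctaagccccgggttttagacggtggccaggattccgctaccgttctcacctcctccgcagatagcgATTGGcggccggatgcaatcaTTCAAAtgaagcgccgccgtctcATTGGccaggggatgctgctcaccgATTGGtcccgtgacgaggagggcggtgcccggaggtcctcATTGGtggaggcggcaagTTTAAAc
KIF20A: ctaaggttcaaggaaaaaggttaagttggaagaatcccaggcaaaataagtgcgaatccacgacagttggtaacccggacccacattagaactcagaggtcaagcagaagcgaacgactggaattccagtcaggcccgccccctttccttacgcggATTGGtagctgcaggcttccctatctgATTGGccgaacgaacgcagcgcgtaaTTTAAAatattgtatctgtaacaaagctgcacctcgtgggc
ANLN: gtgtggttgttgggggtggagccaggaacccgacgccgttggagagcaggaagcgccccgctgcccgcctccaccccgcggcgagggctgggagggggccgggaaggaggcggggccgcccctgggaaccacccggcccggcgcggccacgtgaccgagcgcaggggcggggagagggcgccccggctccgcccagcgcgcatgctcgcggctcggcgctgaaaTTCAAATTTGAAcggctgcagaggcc
AURKB: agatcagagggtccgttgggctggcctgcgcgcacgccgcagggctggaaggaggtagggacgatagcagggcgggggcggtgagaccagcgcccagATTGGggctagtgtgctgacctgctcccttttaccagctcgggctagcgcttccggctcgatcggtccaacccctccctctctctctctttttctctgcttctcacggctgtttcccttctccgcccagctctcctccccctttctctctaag
ASPM holds 2 CHR and 4 CCAAT matches, KIF20A 1 CHR and 2 CCAAT, ANLN 2 neighbouring CHR and no CCAAT, and AURKB 1 CCAAT and no CHR. The called member CDC25B has 4 windows, with no CHR before the start in any of them, and is not printed. Of the 7 called members 5 had a promoter window, and TTK and BIRC5 had none. Over windows of 300 bases (250 before and 50 after a start), 36 of the 42 members had an entry in the table used, and 33 of these 36 (91.7%) held a CHR of either form in at least 1 window, against 27.9% of all 27305 genes. Counted by window, the share was 80.4% of the members' 46 windows and 24% of all 35116. A CHR that begins within 60 bases before the start was held by 24 of the 36 members, against 6.85% of all genes. CCAAT was held by 30 of 36 members (83.3%) and by 39.7% of all genes. The ETS core GAGGAA, the kind of site the SPIB family binds, was held by 8 of 36 (22.2%) and by 31.8% of all genes, and the E2F forms TTTCCCGC and TTTGGCGC by 1 of 36 each, against 1.98% and 0.795%. These are matches of letters in the reference and not measured binding, and the motifs were chosen because genes of this kind are known to carry them.

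The deposited values are FPKM, fragments per transcript length and library size, so that levels can be compared between genes. The sums over all loci lay between 707883 and 786285 FPKM per library. Read totals are unknown, so no counting interval can be given. SPIB lies in a locus merged with POLD1 (41.8 to 55.9 FPKM in the 8 libraries), so these values do not check the knockdown. The squamous label was set against marker genes. TP63, DSG3, DSC3 and PKP1, which define squamous epithelium, had means of at most 0.138 FPKM, while SOX2, the other squamous marker measured, had 1.87 FPKM. KRT5, KRT6A and KRT14 have no row under their own symbol and were not analysed here. Of the epithelial genes, EPCAM and CDH1 had 0.0795 and 0.131 FPKM, and KRT8, KRT18 and KRT19 had 15.6, 66.9 and 2.66 FPKM. The mesenchymal gene VIM had 2271 FPKM. Of 5 measured squamous markers 1 thus had a mean above 1 FPKM, so the squamous label is not borne out by most of its measured markers, and the epithelial markers were mixed. The leukocyte genes PTPRC and CD3E had means of at most 0.0667 FPKM.

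All 35 members passed the filter on low values (at least 1 FPKM in at least 2 libraries), which left 13438 genes and loci for testing. The mitosis genes were well expressed. Their mean FPKM over 8 libraries ran from 10.3 for CDC25C, a phosphatase that activates CDK1, to 254.8 for CKS1B. CKS1B is a small subunit of CDK complexes, and its value sums 2 loci. The median was 53.9 against 12.8 over all tested genes. Of the 35, 9 had a mean above 100 FPKM: CKS1B, CCNB1, CKS2, CDC20, PTTG1, AURKB, TPX2, NUSAP1 and PRC1. Only CDC25C, ASPM and CENPE lay below 20 FPKM. Members varied little between libraries: the highest library exceeded the lowest by 1.22 times at the median, from 1.07 times for KIF4A to 1.68 times for TTK. The sum over the 35 members was 2914 and 2858 FPKM in attached control cells, 2836 and 2757 in attached knockdown cells, 2853 and 2729 in detached control cells and 2843 and 2722 in detached knockdown cells. The attached control libraries had the highest sums, and the other 3 groups overlapped. Between the 2 libraries of each group, the median absolute difference of the members was 0.05 to 0.08 log2, against 0.10 to 0.11 for all tested genes.

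**Figure D1:**
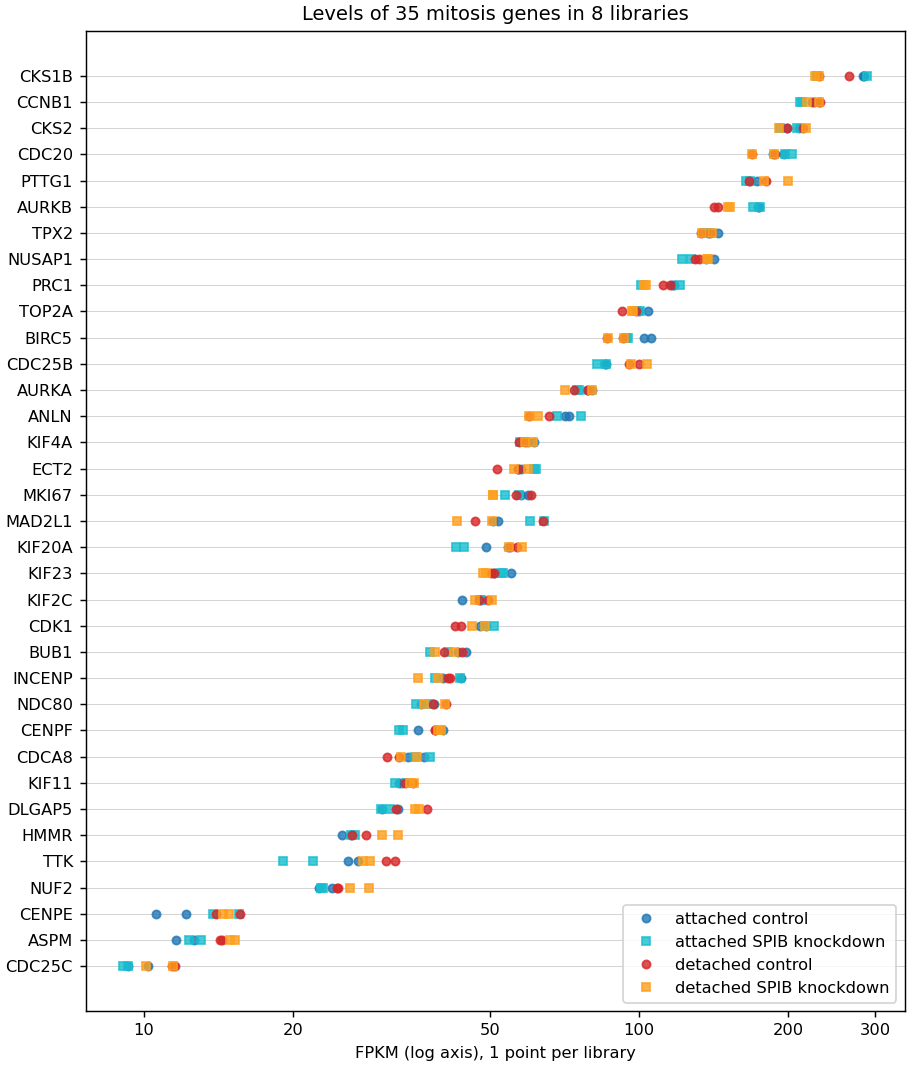
FPKM of the 35 mitosis genes (log axis) in each of the 8 libraries, 1 point per library, with genes ordered by their mean and colours for the 4 groups. Levels run from CDC25C (mean 10.3 FPKM) to CKS1B (254.8 FPKM, its loci summed). For most genes the points of the 4 groups lie close together, with TTK showing the widest ratio (1.68).

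On detachment the mitosis genes showed no common direction, and a few of them moved in opposite ways. With control and knockdown cells averaged (4 detached against 4 attached libraries), 4 of 35 members rose, TTK, KIF20A, ASPM and CDC25B, and 3 fell, AURKB, ANLN and BIRC5. Over all tested genes 15.6% passed this test (5.48% rose and 10.1% fell) and 7 of 35 members is near that background. The median log2 fold change of the members was -0.005, against -0.01 over all tested genes. The 95% interval of the fold change lay within 0.5 log2 (1.41-fold) on either side of 0 for all 35 members, the called ones included. It did so for 10370 of all 13438 tested genes. The summed level of 4 measured mesenchymal markers (VIM, FN1, CDH2 and ZEB1) was 2439 to 2591 FPKM in attached and 2091 to 2130 in detached libraries. That of 5 epithelial ones (EPCAM, CDH1, KRT8, KRT18 and KRT19) was 94.2 to 112.6 and 61.3 to 69.5 FPKM. VIM made up most of the first sum, and KRT18 and KRT8 most of the second. VIM, KRT18 and KRT8 were each lower in every detached library than in any attached one. For VIM the values were 2056 to 2097 against 2402 to 2550 FPKM. For the other markers of both sums, attached and detached libraries overlapped. The part of these shifts in the result was not tested. Tests were made with limma on log2(FPKM + 1), with Benjamini-Hochberg adjustment over all 13438 genes. Which way the calls fall depends on scaling: with quantile normalization, and with FPKM rescaled without small RNA, ribosomal RNA and mitochondrial genes, 10 members rose and 1 fell. Among all called genes 35.2% were rises as deposited, against 51.7% and 56.6% under those scalings and 42.7% under median of ratios scaling, where 6 members rose and 2 fell.

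**Figure D2:**
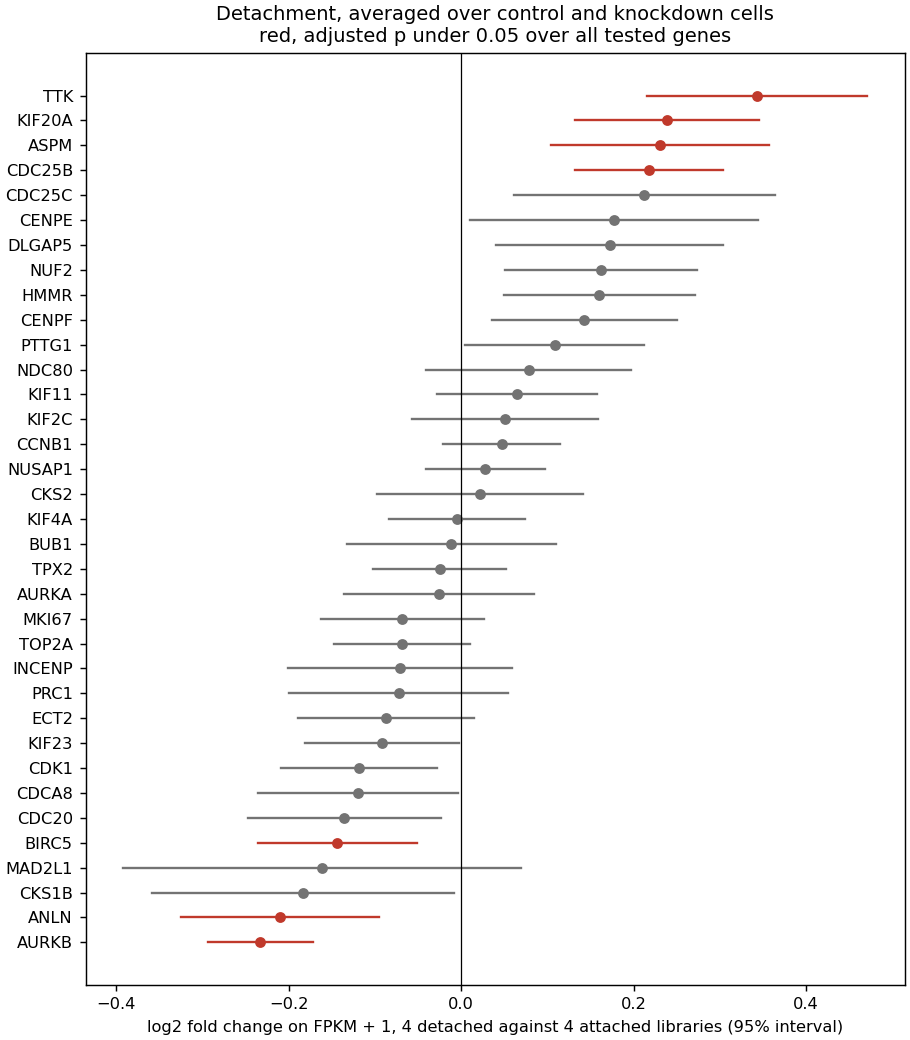
Log2 fold change of each of the 35 members in 4 detached against 4 attached libraries (x axis, on FPKM + 1) with its 95% interval, genes ordered by the estimate and red for an adjusted p under 0.05. The estimates run evenly from AURKB (-0.23) to TTK (0.34), with 17 above 0 and 18 below.

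Among the genes that start mitosis are CDK1, its cyclin CCNB1, the activating phosphatases CDC25B and CDC25C, and the CDK-binding subunits CKS1B and CKS2. CDC25B (hg19 chr20:3767578-3792685) had 85.6 and 85.5 FPKM in attached control cells, 82.4 and 85.6 in attached knockdown cells, 99.7 and 95.2 in detached control cells and 103.7 and 96.4 in detached knockdown cells. All 4 detached libraries lay above all 4 attached ones, and CDC25B rose on detachment by 0.22 ± 0.04 log2 (SE, adjusted p = 0.00955). CDC25C, at 9.06 to 10.2 FPKM attached and 10.1 to 11.5 detached, had a fold change of similar size that did not pass (0.21 ± 0.06, adjusted p = 0.0666). CDK1 lay at 47.8 and 49.0 FPKM in attached control, 48.7 and 50.8 in attached knockdown, 43.6 and 42.4 in detached control and 45.9 and 48.8 in detached knockdown cells (-0.12 ± 0.04, adjusted p = 0.0814). CCNB1 and CKS2, at 211.4 to 232.2 and 191.9 to 217.7 FPKM, had fold changes of 0.05 ± 0.03 and 0.02 ± 0.05. So of the 6 measured genes that start mitosis 1 rose and none fell, with the loci of CKS1B summed. Over all tested genes 5.48% rose and 10.1% fell.

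CKS1B, the member of highest level, is the sum of a locus at the gene on chromosome 1 and a 240-base locus on chromosome 5 (hg19 chr5:61808070-61808309) that carries the same symbol. The sum was 284.5 and 283.2 FPKM in attached control, 288.9 and 228.7 in attached knockdown, 265.2 and 230.8 in detached control and 230.4 and 226.6 in detached knockdown cells. Its fold change on detachment was -0.18 ± 0.08 (adjusted p = 0.146). With the chromosome 1 locus alone it was -0.13 and passed (adjusted p = 0.0201), so the call for CKS1B turns on which loci are counted. A 240-base locus can share reads with the gene itself, and the level of CKS1B is uncertain to that extent. The chromosome 1 locus alone lay at 181.4 to 207.1 FPKM, below every library of CCNB1 (211.4 to 232.2). The first rank of CKS1B thus rests on the sum.

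The kinases that run mitosis and its checkpoint moved in both directions. TTK, the kinase MPS1 that starts the spindle assembly checkpoint (hg19 chr6:80713604-80752244), had 25.8 and 27.04 FPKM in attached control, 21.9 and 19.1 in attached knockdown, 32.2 and 30.8 in detached control and 27.7 and 28.6 in detached knockdown cells. Every detached library was above every attached one, and TTK rose by 0.34 ± 0.05 (adjusted p = 0.00766), the largest estimate among the 35 members. AURKB, the kinase of the chromosomal passenger complex that corrects faulty attachments (hg19 chr17:8094552-8114482), had 174.3 and 173.8 FPKM in attached control, 175.7 and 169.8 in attached knockdown, 144.4 and 141.8 in detached control and 152.6 and 151.1 in detached knockdown cells. No detached library reached the attached range, and AURKB fell by 0.23 ± 0.03 (adjusted p = 0.00236). Both calls held under all 17 alternatives of the processing, as did that of CDC25B. AURKA, the centrosomal relative of AURKB, lay at 70.7 to 80.2 FPKM with a fold change of -0.03 ± 0.05, and the checkpoint kinase BUB1 at 37.9 to 44.8 FPKM with -0.01 ± 0.05. MAD2L1, the checkpoint protein that holds back CDC20, was the least even member between replicates: 50.7 and 51.8 FPKM in attached control, 64.3 and 60.3 in attached knockdown, 46.6 and 63.8 in detached control and 43.0 and 50.5 in detached knockdown cells. Its fold change on detachment was -0.16 ± 0.10 (adjusted p = 0.314), and the detached libraries overlapped the attached ones.

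CDC20, the activator of the anaphase-promoting complex, and PTTG1 (securin), one of that complex's substrates, did not pass the test. CDC20 had 196.4 and 186.1 FPKM in attached control, 196.7 and 203.4 in attached knockdown, 187.7 and 168.7 in detached control and 187.0 and 169.3 in detached knockdown cells (-0.14 ± 0.05, adjusted p = 0.101). PTTG1 had 172.6 and 167.1, 164.1 and 167.5, 180.7 and 166.3, and 199.6 and 178.9 FPKM in the same order of groups (0.11 ± 0.04, adjusted p = 0.145). The ranges of attached and detached libraries overlapped for both.

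Of 7 measured genes of the centromere, kinetochore and passenger complex, 1 passed, where 15.6% of all tested genes did. BIRC5 (survivin), a passenger protein that is also known as an inhibitor of cell death (hg19 chr17:76210267-76231700), had 102.4 and 105.5 FPKM in attached control, 95.04 and 93.93 in attached knockdown, 92.9 and 86.2 in detached control and 93.1 and 86.5 in detached knockdown cells. All detached libraries lay below the attached ones, by a margin of less than 1 FPKM in the closest pair, and BIRC5 fell by 0.14 ± 0.04 (adjusted p = 0.0483). This call is at the edge of the threshold and was lost without any 1 of the 8 libraries. The other passenger genes CDCA8 (borealin) and INCENP had -0.12 ± 0.05 and -0.07 ± 0.06 and did not pass, so AURKB and BIRC5 were the passenger genes that fell. At the outer kinetochore, NUF2 lay at 22.5 to 23.9 FPKM in attached and 24.5 to 28.5 in detached libraries, without overlap, but missed the threshold (0.16 ± 0.05, adjusted p = 0.0601), and its partner NDC80 had 0.08 ± 0.05. CENPE, a kinetochore motor, had 12.2 and 10.6 FPKM in attached control, 15.6 and 13.8 in attached knockdown, 14.0 and 15.6 in detached control and 14.9 and 14.4 in detached knockdown cells. The 2 attached control libraries were the lowest, and the averaged fold change was 0.18 ± 0.07 (adjusted p = 0.142). CENPF had 0.14 ± 0.05 (adjusted p = 0.0771).

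Among 5 mitotic kinesins 1 passed and rose, where 15.6% of all tested genes passed. KIF20A, the motor that carries the passenger complex to the midzone (hg19 chr5:137513773-137526102), had 54.3 and 49.1 FPKM in attached control, 44.2 and 42.7 in attached knockdown, 56.8 and 54.8 in detached control and 58.0 and 54.7 in detached knockdown cells. The detached libraries lay above all attached ones, narrowly so for attached control replicate 1, and KIF20A rose by 0.24 ± 0.05 (adjusted p = 0.0146). Without detached control replicate 1 the adjusted p was 0.0509. KIF4A, the member of highest level among the kinesins and the steadiest of all members, had 61.2 and 59.5, 57.5 and 58.5, 58.9 and 57.1, and 61.1 and 58.9 FPKM in the 4 groups (0.00 ± 0.03 on averaged detachment). KIF11, which pushes spindle poles apart, KIF23, a subunit of centralspindlin, and KIF2C, which takes microtubules apart, had fold changes from -0.09 to 0.06 and did not pass.

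Of 6 spindle and midzone genes 1 passed and rose, where 15.6% of all tested genes passed. ASPM, a protein of the spindle poles (hg19 chr1:197053258-197115824), had 11.6 and 12.6 FPKM in attached control, 13.0 and 12.3 in attached knockdown, 14.3 and 14.4 in detached control and 14.9 and 15.3 in detached knockdown cells. The groups did not overlap, and ASPM rose by 0.23 ± 0.05 (adjusted p = 0.0293). The call was lost without 7 of the 8 libraries, taken 1 at a time, with the fold change staying between 0.20 and 0.28 over all alternatives. HMMR, a spindle and hyaluronan-binding protein, had 26.2 and 25.1, 26.7 and 26.2, 26.4 and 28.1, and 30.2 and 32.6 FPKM in the 4 groups (0.16 ± 0.05, adjusted p = 0.0602). DLGAP5, which bundles spindle fibres at the kinetochore, had 0.17 ± 0.06 (adjusted p = 0.0811). TPX2, which activates AURKA on the spindle, lay at 133.5 to 144.5 FPKM, NUSAP1 at 121.9 to 141.5 and PRC1, which bundles midzone microtubules, at 101.0 to 120.8, with fold changes from -0.07 to 0.03.

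ANLN (anillin), the scaffold of the contractile ring (hg19 chr7:36429137-36493400), had 72.3 and 70.9 FPKM in attached control, 68.1 and 76.3 in attached knockdown, 65.7 and 59.9 in detached control and 62.4 and 60.04 in detached knockdown cells. The detached libraries lay below all attached ones, and ANLN fell by 0.21 ± 0.05 (adjusted p = 0.0293), a call that was lost in 10 of 17 alternatives. ECT2, the exchange factor that activates RhoA at the cleavage site, had 57.7 and 56.8, 62.0 and 61.3, 56.9 and 51.5, and 59.6 and 55.8 FPKM in the 4 groups (-0.09 ± 0.04, adjusted p = 0.224). TOP2A, the topoisomerase that untangles sister chromatids, had 104.3 and 100 FPKM in attached control, 98.8 and 100.5 in attached knockdown, 98.7 and 92.4 in detached control and 97.1 and 96.6 in detached knockdown cells. Its detached libraries lay just below the attached ones with a fold change of -0.07 ± 0.03 that did not pass (adjusted p = 0.22). MKI67, the chromosome coat protein detected by Ki-67 staining, is a sum of overlapping loci. It had 57.9 and 59.6, 57.3 and 53.7, 56.3 and 60.4, and 50.7 and 50.8 FPKM in the 4 groups (-0.07 ± 0.04, adjusted p = 0.296).

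**Figure D3:**
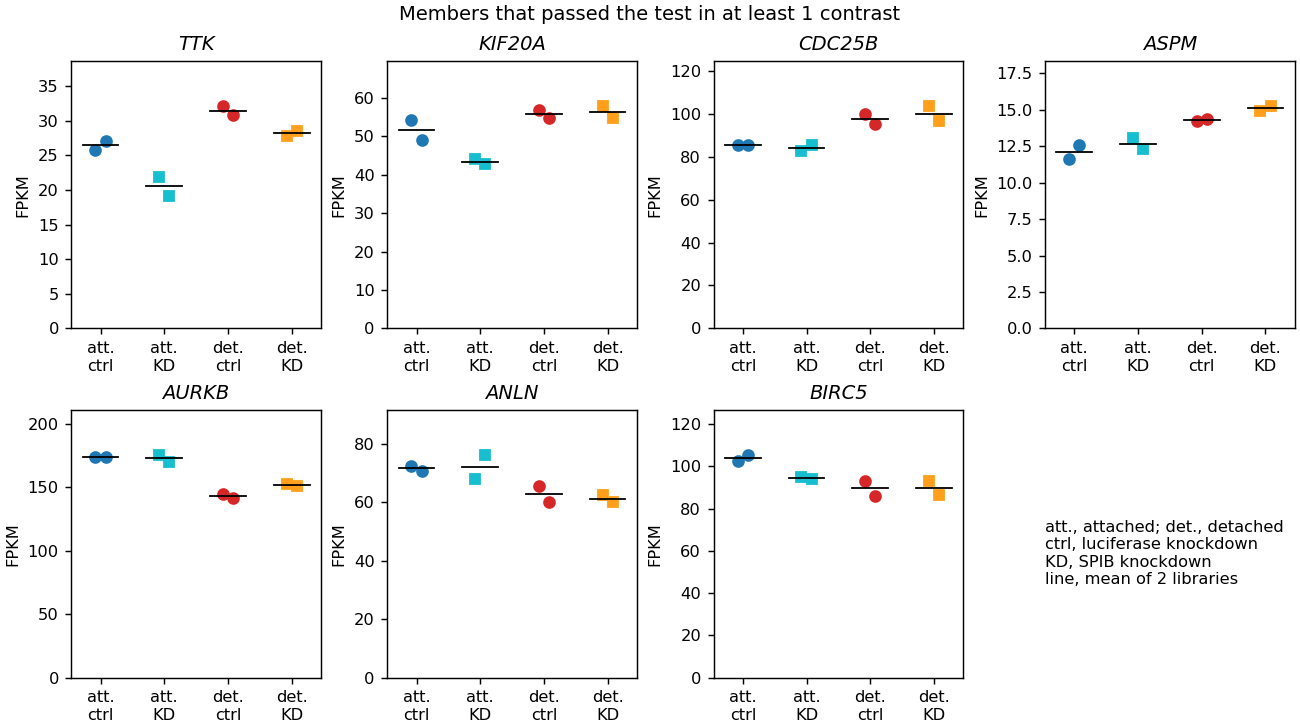
FPKM of the 7 members that passed the test in at least 1 contrast, by group, with 1 point per library, a line at the mean of 2 libraries and each axis starting at 0. TTK, KIF20A, CDC25B and ASPM are higher and AURKB, ANLN and BIRC5 lower in all 4 detached libraries than in the 4 attached ones, with TTK and KIF20A lowest in attached knockdown cells.

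In all, 5 members (CDC25B, TTK, NUF2, KIF20A and ASPM) had all 4 detached libraries above all 4 attached ones and 4 (AURKB, BIRC5, ANLN and TOP2A) had them below. This is 9 of 35, where 18.4% of all tested genes had no overlap (6.79% above and 11.6% below). The tally uses summed loci. The chromosome 1 locus of CKS1B alone had 197.3 to 207.1 FPKM attached and 181.4 to 190.4 detached, also without overlap. Of the 7 members in merged loci, the locus of PAK6 and BUB1B had 69.6 to 78.3 FPKM attached and 78.2 to 85.8 detached and passed the test (0.16 ± 0.04, adjusted p = 0.0422). The share of that value that comes from BUB1B is unknown. The other 6 merged loci did not pass, with fold changes from -0.10 to 0.10. They included the loci of PLK1 with DCTN5 (129.5 to 145.2 FPKM) and of FOXM1 with a neighbour that has only a clone name (124.0 to 142.6 FPKM).

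Detachment was then taken separately in control and in knockdown cells, which share no library. In control cells only AURKB passed (-0.28 ± 0.04, adjusted p = 0.0141), against 3.15% of all tested genes. In knockdown cells 4 members passed, against 7.11% of all: TTK (0.44 ± 0.08, adjusted p = 0.0205), KIF20A (0.37 ± 0.06, adjusted p = 0.0205) and CDC25B (0.25 ± 0.05, adjusted p = 0.0328) rose and AURKB (-0.18 ± 0.04, adjusted p = 0.0287) fell. The fold changes of TTK, KIF20A and CDC25B in control cells were 0.24, 0.11 and 0.19. None of the 3 passed in control cells, and none passed the test of the difference between control and knockdown cells (adjusted p at least 0.683). Leaving out 1 library gave 0 or 1 call in control cells and 0 to 3 in knockdown cells. In the fit of the compared groups alone none passed in either. The median fold change of the members was -0.01 in control and 0.02 in knockdown cells. The estimates had the same sign in 30 of 35 members, with Pearson's r of 0.61 and Spearman's rho of 0.67 across the 35 genes. Over all tested genes r was 0.42, rho 0.48 and the sign was the same in 9254 of 13438. Genes are not independent replicates, and these values describe the libraries.

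**Figure D4:**
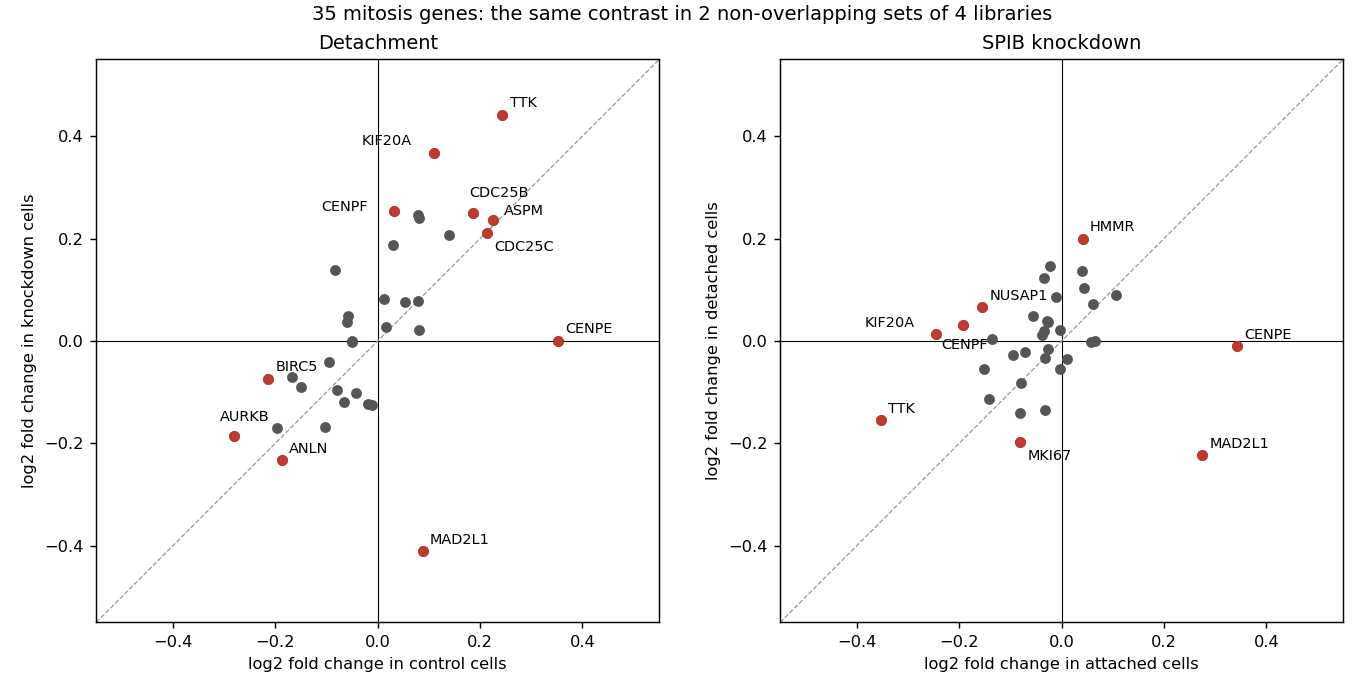
Log2 fold changes of the 35 members: on the left detachment in control cells (x) against knockdown cells (y), on the right SPIB knockdown in attached cells (x) against detached cells (y). The dashed line marks equal values and red points are the genes named. On the left 30 of 35 have the same sign in both, on the right 18 of 35.

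With SPIB knocked down, TTK was the single one of the 35 members that passed the test. In attached cells none of the 35 passed by limma, where 1.85% of all tested genes did. The unadjusted p was under 0.05 for 6 of 35 members and for 2295 of all 13438 genes. In detached cells none passed, where 0.737% of all did. There the unadjusted p was under 0.05 for 3 of 35 members and for 1596 of all 13438 genes. Averaged over attached and detached cells, TTK fell by 0.25 ± 0.05 log2 (adjusted p = 0.0487), where 4.24% of all tested genes passed. TTK was lower with the knockdown in both states, by 0.35 ± 0.08 in attached cells (20.5 ± 1.99 against 26.4 ± 0.88 FPKM, SD, n = 2 each) and by 0.15 ± 0.08 in detached cells. Detached knockdown libraries of TTK lay above attached control ones, so the 4 knockdown libraries were not all below the 4 control libraries. This TTK call is at the edge of the threshold and remained in 6 of 17 alternatives. With loci of 1 symbol summed, no member had its 4 knockdown libraries apart from its 4 control libraries, where 7.98% of all tested genes did. The larger MKI67 locus alone had 49.3 to 50.1 FPKM in control and 43.5 to 46.9 in knockdown libraries, without overlap. The smaller locus summed with it (hg19 chr10:129900740-129907331) had 6.45 to 10.3 FPKM. It lies within the span of the larger one (hg19 chr10:129893094-129924654).

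The remaining members gave small and uneven estimates. The median over the 35 was -0.03 for the knockdown in attached cells, 0.00 in detached cells and -0.01 averaged. Of the 35, 25 were below 0 in attached and 16 in detached cells, against 6501 and 6717 of all 13438 tested genes. The sign was the same in both for 18 of 35, against 8335 of 13438. Across genes r was 0.13 for the members and 0.227 for all tested genes. KIF20A was at 43.4 ± 1.08 FPKM in attached knockdown against 51.7 ± 3.69 in attached control cells (SD, n = 2 each, -0.24 ± 0.06, adjusted p = 0.12) and had 0.01 ± 0.06 in detached cells. CENPE was higher in attached knockdown than in attached control cells (0.34 ± 0.10, adjusted p = 0.149) and level in detached cells (-0.01 ± 0.10). MKI67 had -0.08 ± 0.06 in attached and -0.20 ± 0.06 in detached cells, and -0.14 ± 0.04 averaged (adjusted p = 0.111). All 35 intervals of the averaged knockdown effect lay within 0.5 log2 of 0, as did those of 10960 of all 13438 tested genes.

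The knockdown effect in detached cells was then compared with that in attached cells. No member passed this test of the difference by limma (5 had an unadjusted p under 0.05), and none of the 13438 genes did (898 had an unadjusted p under 0.05, and percent called was 0). The members' estimates ran from -0.50 ± 0.20 for MAD2L1 to 0.26 ± 0.09 for KIF20A. Of the 35, 24 were above 0, against 6485 of all 13438 tested genes. The median was 0.05 for the members and -0.007 over all tested genes. The 95% interval lay within 0.5 log2 of 0 for 33 of 35 members, against 6566 of all 13438 tested genes.

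Genes of other phases of the cell cycle were set beside the mitosis genes. Of S phase and DNA replication genes, 18 of 39 measured fell and none rose on averaged detachment, against 10.1% and 5.48% of all tested genes, and all 39 estimates were below 0, with a median of -0.19. Among them, RRM2, a subunit of the enzyme that makes deoxynucleotides, fell by 0.30 ± 0.03 (adjusted p = 0.00203), TYMS, which makes thymidylate, fell by 0.26 ± 0.03 (adjusted p = 0.0021), and the helicase subunit MCM4 fell by 0.29 ± 0.06 (adjusted p = 0.0146). In the 8 libraries the median of S phase genes relative to attached control cells lay between -0.04 and 0.04 log2 in attached and between -0.21 and -0.12 in detached libraries, without overlap. That of the 35 mitosis genes lay between -0.04 and 0.01 and between -0.02 and 0.02, with overlap. The number of S phase genes that fell was 13, 8 and 7 under median of ratios scaling, quantile normalization and rescaling, with medians from -0.17 to -0.15 and none rising. Under the same scalings the median of the 35 mitosis genes was 0.01, 0.06 and 0.04 on averaged detachment. Of them 6, 10 and 10 rose and 2, 1 and 1 fell, so their level course holds for the deposited scale. The lists were compared by these counts and medians only.

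**Figure D5:**
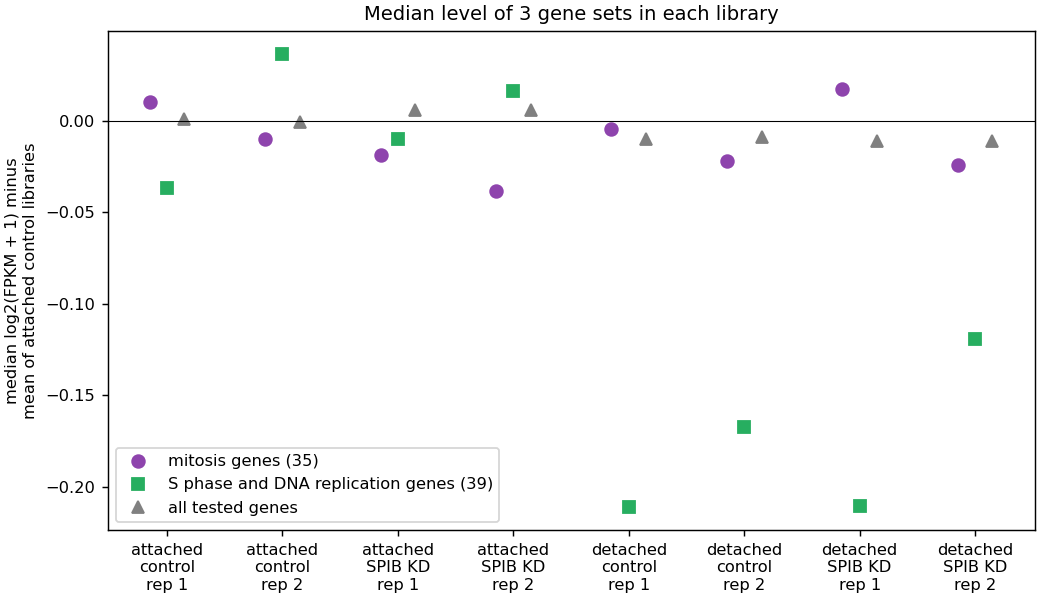
Median log2(FPKM + 1) of 35 mitosis genes, 39 S phase genes and all tested genes in each library, relative to the mean of the attached control libraries. On the deposited scale mitosis genes stay between -0.04 and 0.02 in all libraries, while S phase genes lie between -0.21 and -0.12 in the 4 detached libraries.

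Of 7 measured G1 cyclins and kinases, which carry cells into S phase, 5 fell on averaged detachment and none rose, against 10.1% and 5.48% of all tested genes. They were cyclin D1 (CCND1, -0.38 ± 0.06, adjusted p = 0.0066), its partner kinases CDK6 (-0.45 ± 0.07, adjusted p = 0.00586) and CDK4 (-0.22 ± 0.05, adjusted p = 0.021), CCND2 (-0.17) and CCNE1 (-0.26). CCND1 had 103.2 and 98.8 FPKM in attached control, 111.2 and 129.8 in attached knockdown, 81.8 and 86.1 in detached control and 81.3 and 89.6 in detached knockdown cells. CCND3 (-0.04 ± 0.04) and CCNE2 (-0.31 ± 0.10, adjusted p = 0.072) did not pass, and under the 3 other scalings 2 to 4 of the 7 fell.

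Of the factors that switch mitosis genes, 3 of 12 measured MuvB, DREAM, MYBL2 and E2F genes fell and none rose, against 10.1% and 5.48% of all tested genes. MYBL2, the MYB protein that joins MuvB in S phase, had 110.9 and 114.7 FPKM in attached control, 106.1 and 108.1 in attached knockdown, 94.7 and 98.7 in detached control and 93.7 and 91.4 in detached knockdown cells. It fell by 0.21 ± 0.03 (adjusted p = 0.00555), and E2F4, a repressor subunit of DREAM, fell by 0.30 ± 0.04 (adjusted p = 0.00326). TFDP1, the E2F partner, was the third (-0.25 ± 0.05). Of 12 measured cell cycle brakes 2 passed as higher on detachment and 1 as lower. CDKN2C rose by 0.26 ± 0.06 averaged, with 0.48 ± 0.08 in knockdown cells (adjusted p = 0.0168) and 0.04 ± 0.08 in control cells (adjusted p = 0.807). The difference between them did not pass (adjusted p = 0.619). CDKN1C had 0.0989 to 0.492 FPKM attached and 0.814 to 1.04 detached. It reached 1 FPKM only in the detached knockdown libraries and so passed the filter only through a group where it is high, and its call is no support for a rise. GADD45A, a stress gene that can arrest cells before mitosis, fell by 1.15 ± 0.04 (adjusted p = 3.14e-05).

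A wider list of other mitosis genes was measured for 84 of its 98 symbols. On averaged detachment 2 rose (CCNB3 and NUMA1) and 7 fell (BUB3, CDC25A, CENPL, GSG2, SKA3, SPDL1 and ZWINT), with a median of -0.04. Over all tested genes 5.48% rose and 10.1% fell, so neither count exceeds the background. ZWINT, a kinetochore protein, had 160.9 and 158.5 FPKM in attached control, 166.0 and 163.1 in attached knockdown, 132.4 and 133.7 in detached control and 143.0 and 133.5 in detached knockdown cells, and fell by 0.26 ± 0.03 (adjusted p = 0.00314). CDC25A, the relative of CDC25B that acts at the start of S phase, fell by 0.52 ± 0.08 (adjusted p = 0.00671), where CDC25B rose. Under the other scalings 3 to 6 of the 84 rose and 5 to 7 fell, and the median changed sign under quantile normalization and rescaling (both 0.01).

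For the averaged SPIB knockdown, 4 of the 154 measured genes of these lists passed: CDKN1A, CDKN2C, CKAP2 and CCND2. This share is below the 4.24% of all tested genes that passed. CDKN1A (p21), the CDK inhibitor that acts through DREAM to lower mitosis genes, had 23.9 and 22.9 FPKM in attached control, 44.8 and 47.8 in attached knockdown, 28.5 and 31.1 in detached control and 38.1 and 41.7 in detached knockdown cells. All 4 knockdown libraries lay above all 4 control libraries, and CDKN1A rose by 0.68 ± 0.05 (adjusted p = 0.000864). In the same contrast 1 of 35 mitosis genes fell, where 2.84% of all tested genes did. A link between CDKN1A and the mitosis genes was not tested. CDKN2C fell by 0.34 ± 0.06 (adjusted p = 0.0199), with -0.56 ± 0.08 in attached and -0.12 ± 0.08 in detached cells. The spindle gene CKAP2 fell by 0.28 ± 0.04 (adjusted p = 0.0132) and CCND2 rose by 0.21 ± 0.04 (adjusted p = 0.0314). No S phase gene of 39 and none of the 12 MuvB and E2F genes passed by limma.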

How the data were processed

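RNA levels of 8 libraries (4 groups of 2) came as FPKM values, which the authors deposited in 1 table per library. The submitters' processing notes name HISAT, Cuffnorm and hg19, with no version in the sources used here. Per the labels' protocols, Trizol RNA was reverse transcribed with a first-strand kit. Strandedness is not stated there, so it is unknown whether reads of overlapping genes were told apart. The 28590 loci became 27204 once loci of 1 symbol were summed (CKS1B and MKI67 have 2 each). Loci that merge several genes were kept apart. The log2(FPKM + 1) scale used here understates changes of low genes.

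limma 3.58.1 in R 4.3.3 (lmFit, contrasts.fit, eBayes with trend) took 1 mean per group over all 8 libraries (4 residual degrees of freedom) and gave two-sided tests of 7 contrasts over 13438 genes with at least 1 FPKM in at least 2 libraries. Called genes have a Benjamini-Hochberg adjusted p under 0.05, and only these are said to rise or fall. The error of a log2 fold change is its standard error. The code was tested on simulated data. These p-values cover the spread between the samples at hand. Values in every library are given for called members and, in each role group, for the member of highest level and those of the largest fold change. MAD2L1, CDK1, CENPF and NUSAP1 were added after their values were seen. Members and lists were chosen with earlier results of these data known. Alternatives covered pseudocount, filter, scaling, trend, loci, samples in the fit, replicate block and each library left out. RefSeq promoters were read from a GRCh38.p14 table, apart from the hg19 positions of the loci.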

Additional observations from a re-analysis of the deposited data

Results flagged for a closer look

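CENPF, KIF4A and NUSAP1 were picked out because both libraries of a group moved one way in 1 setting and both moved the other way in the other setting. The test of the difference itself (limma, Benjamini-Hochberg adjustment over all tested genes) passed for none of them.

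CENPF, a kinetochore protein, had 40.1 and 35.8 FPKM in attached control and 32.7 and 33.3 in attached knockdown cells, a knockdown effect of -0.19 log2. In detached cells it had 38.7 and 38.7 FPKM in control and 39.9 and 39.3 in knockdown cells (0.03). The effects differed by 0.22 (adjusted p = 0.724). NUSAP1, a spindle protein, had 141.5 and 136.4 FPKM in attached control, 127.4 and 121.9 in attached knockdown, 132.3 and 129.9 in detached control and 137.4 and 137.1 in detached knockdown cells. Its knockdown effect was -0.16 in attached and 0.07 in detached cells, and its detachment effect -0.08 in control and 0.14 in knockdown cells, a difference of 0.22 in both views (adjusted p = 0.621). KIF4A, the steadiest member, had a detachment effect of -0.06 in control and 0.05 in knockdown cells and a knockdown effect of -0.06 in attached and 0.05 in detached cells, a difference of 0.11 in both views (adjusted p = 0.827). Opposite moves of this kind were seen for 2 of 35 members in detachment, where 3.97% of all tested genes had them, and for 3 of 35 in the knockdown, where 4.73% of all did.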

How the results depend on the processing

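Precision is limited by 2 libraries per group, by an unknown read depth, and for CKS1B and MKI67 by which loci are counted. Of 1670 comparisons of a fold change of at least 0.1 with its value under an alternative, over 95 results, 1554 kept direction and side of the threshold, 82 lost the call, 31 gained one and 3 turned direction, none of them a called one. The causes of these changes were not tested.

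The 3 that turned were CKS1B for the knockdown in detached cells with the highest locus of its symbol alone (0.0266), CKS1B for the knockdown in attached cells, which ranged from -0.3106 to 0.0252 without 1 library, and PRC1 for detachment in knockdown cells, which ranged from -0.2294 to 0.026. The upper ends are those without attached SPIB knockdown replicate 2. AURKB, CDC25B and TTK kept their calls on averaged detachment in all 17 alternatives, KIF20A in 16, ASPM in 10, ANLN in 7 and BIRC5 in 4. Members called on averaged detachment numbered 11 under quantile normalization and 11 under rescaling, which leaves out mitochondrial genes, rRNA and small RNA, against 7, and 4 to 6 without 1 library. In control cells 1 member was called, 2 under quantile normalization, 0 without an intensity trend and 0 in the fit of the compared groups alone. In knockdown cells 4 were called, 0 without an intensity trend, 0 in the fit of the compared groups alone and 0 to 3 without 1 library. Against 3 rises and 1 fall there, quantile normalization gave 5 and 0 and rescaling 6 and 0, and the fall of AURKB in knockdown cells was kept in 6 of 18 alternatives. For the averaged knockdown the TTK call was lost (0 called) without a filter, under quantile normalization, without an intensity trend and with the replicate block, and without 1 library there were 0 to 1, as for detachment in control cells. Knockdown in either state and the difference between states gave 0 calls without any 1 library.

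The median over members moved by more than its spread between replicates in these cases (0.0187 log2 for a contrast of 2 groups, 0.0132 averaged and 0.0264 for the difference between states). Under quantile normalization it was 0.0406 for detachment in control cells, 0.1031 in knockdown cells, 0.0648 averaged, 0.0283 for the knockdown in detached cells, 0.0033 averaged and 0.0767 for the difference between states. Under rescaling it was 0.0289, 0.0782 and 0.0435 for the 3 detachment contrasts in that order and -0.0525 for the knockdown in attached cells. Under median of ratios scaling it was 0.0443 for detachment in knockdown cells and 0.014 averaged. Without 1 library it ranged from -0.0246 to 0.018 for detachment in control cells, -0.0276 to 0.0785 in knockdown cells and -0.0236 to 0.0191 averaged. For the knockdown it ranged from -0.0578 to -0.0127 in attached cells, -0.0275 to 0.0444 in detached cells and -0.0312 to 0.0009 averaged, and for the difference between states from 0.0146 to 0.0959.

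Over all tested genes, deviations of samples with the same replicate number correlated between -0.185 and 0.267 over the 6 pairs of groups, with both signs. Among the members, the median of replicate 2 minus replicate 1 was below 0 in every group. It ran from -0.050 to -0.020 log2, against -0.0024 to 0.0028 over all tested genes. Whether the replicate numbers pair the samples was not tested. With the replicate block 7 members were called on averaged detachment, 1 in control cells, 4 in knockdown cells and 0 for each knockdown contrast.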
